A study of Mus musculus with 16 samples.

Results

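The 10 genes of the IL-6 family receptor and STAT3 pathway described here in mouse liver are Il6ra, Il6st, Lifr, Osmr, Stat3, Jak1, Jak2, Socs1, Socs3 and Bcl3. They were chosen by gene symbol, as the probe set of the array annotated to that symbol with the highest mean over the 16 arrays, and all 10 were found among 30142 genes, each with 1 probe set. The study hybridised total RNA from whole liver to Affymetrix arrays in 4 groups of 4 arrays, all taken 12 h after surgery. Livers came from Pparafl/fl mice, which carry a floxed Ppara gene and which the labels call wild type, or from Ppara△Hep mice, in which PPARα, the lipid-sensing nuclear receptor that Ppara encodes, is disrupted in hepatocytes. Mice of each genotype had partial hepatectomy (PHx), the surgical removal of part of the liver, or a sham operation. The groups are called sham fl/fl, sham △Hep, PHx fl/fl and PHx △Hep. The study asked what loss of hepatocyte PPARα changes in the regenerating liver at a time when it accumulates fat. The transgene that drives recombination, the extent of the resection, and the mice's strain, sex and age were not stated in the sources at hand. The sample titles carry a different number for each array, but what the number stands for is unstated, as is whether the 4 arrays of a group come from 4 mice, so the p-values speak only of the spread among these samples, which may be technical. Levels are the authors' log2 values, so a difference of 1 is a doubling, and levels of different genes were not compared because each probe set binds with its own strength.

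Interleukin-6 binds the receptor chain encoded by Il6ra, and the pair then engages the signalling chain encoded by Il6st, which the whole cytokine family shares. Leukaemia inhibitory factor signals through Lifr paired with Il6st, and in the mouse oncostatin M signals mainly through Osmr with the same partner. The receptor-bound kinases JAK1, JAK2 and TYK2 then phosphorylate STAT3, which moves to the nucleus and switches on genes such as the acute-phase proteins of hepatocytes and its own inhibitor Socs3. Socs1 and Socs3 block the kinases and so end the signal, while Bcl3 encodes an atypical IκB protein that acts with NF-κB subunits in the nucleus. In the liver, interleukin-6 released mainly by Kupffer cells early after resection is known to prime hepatocytes to divide. STAT3 is activated by phosphorylation, which an RNA measurement does not read.

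STAT proteins bind the palindrome TTCNNNGAA, so the 250 bases before each start site listed in the promoter set used were searched for it (RefSeq, GRCm38.p6). The window of Socs3, the feedback inhibitor, is shown because it was the 1 of 11 windows of the 10 genes that held a match. It lies at chr11:117969367-117969616 on the minus strand, and the capitals mark the match TTCTTAGAA, at -154 to -146 from the start. The start is the listed one, and the annotated Socs3 gene begins further upstream, at chr11:117970336. The window thus lies within the annotated gene. Both windows of Lifr are shown because Lifr had the largest difference between operations and has 2 listed starts, 10970 bases apart on the plus strand. The windows lie at chr15:7129322-7129571 and chr15:7140292-7140541, and first and second below refer to these listed starts only. The annotated Lifr gene begins further upstream, at chr15:7090610, where no window was searched. The windows differ in base composition, with 82.4% and 50.8% G and C, and neither held a match, so nothing is in capitals.
Socs3: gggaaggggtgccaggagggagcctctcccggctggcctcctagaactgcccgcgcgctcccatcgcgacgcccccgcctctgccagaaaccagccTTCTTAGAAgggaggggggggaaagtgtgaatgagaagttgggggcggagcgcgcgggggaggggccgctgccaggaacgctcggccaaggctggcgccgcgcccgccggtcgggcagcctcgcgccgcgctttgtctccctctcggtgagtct
Lifr, first start: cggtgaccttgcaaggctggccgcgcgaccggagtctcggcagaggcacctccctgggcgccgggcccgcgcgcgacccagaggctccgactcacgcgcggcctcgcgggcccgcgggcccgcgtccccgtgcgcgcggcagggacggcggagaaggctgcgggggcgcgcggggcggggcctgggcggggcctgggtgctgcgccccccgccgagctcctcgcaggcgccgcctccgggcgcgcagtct
Lifr, second start: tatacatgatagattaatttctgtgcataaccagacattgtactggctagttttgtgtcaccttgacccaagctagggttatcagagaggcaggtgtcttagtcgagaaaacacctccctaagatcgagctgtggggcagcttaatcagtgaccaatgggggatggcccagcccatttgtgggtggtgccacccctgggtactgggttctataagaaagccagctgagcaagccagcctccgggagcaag
The palindrome occurred in 2306 of 32851 such windows, or 7.02%. The PPAR-type direct repeat, a pair of AGGTCA half-sites 1 base apart searched on both strands, was in 11 of these windows (0.0335%) and in none of the 11 windows of the 10 genes. A match describes the letters of a window and was not tied to any factor here.

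All groups had high levels of hepatocyte genes, with Alb, which encodes albumin, at group means of 11.76 to 11.88. The Ppara probe set read 6.81 ± 0.26 (SD, n = 4) in sham fl/fl, 6.30 ± 0.18 in sham △Hep, 6.49 ± 0.74 in PHx fl/fl and 5.32 ± 0.67 in PHx △Hep, and it may lie partly or wholly outside the deleted part, so it checks the genotype labels only weakly. Array-wide measures differed between operations. The median of all probe sets was 2.02 to 2.08 on the 8 sham arrays and 2.14 to 2.22 on the 8 PHx arrays, while that of the background probe sets was 1.19 to 1.29 and 0.97 to 1.09. Among the 13614 genes with a mean level of 3 or more, the median PHx-minus-sham difference was -0.14 in fl/fl and -0.12 in △Hep, against -0.04 and 0.01 over all genes. The changes below are therefore also given against that shift and under other scalings of the arrays. The highest single background probe set read 5.39 to 5.67 on sham arrays and 4.60 to 5.25 on PHx arrays. Jak2 and Socs1 lay below it on every array, at no more than 4.47 and 4.07, so their changes were read within the range of background probe sets. Osmr and Socs3 lay below it on every sham array, at no more than 4.92 and 5.29, and on some PHx arrays. Bcl3 lay below it on most sham arrays and on some PHx arrays. The changes of Osmr, Socs3 and Bcl3 were thus read partly within that range.

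After PHx, 6 of the 10 genes fell in fl/fl livers (Il6ra, Il6st, Lifr, Jak2, Socs1 and Bcl3) and 4 fell in △Hep livers (Il6st, Lifr, Jak2 and Socs1), with none higher in either. A change passed when limma's adjusted p (Benjamini-Hochberg over all 30142 genes) was below 0.05. By that rule 20.8% of all genes were lower in fl/fl and 17.5% in △Hep, and 34.9% and 33.6% of the genes with a mean level of 3 or more, which all 10 members reach. The members' median difference was -0.33 in fl/fl and -0.29 in △Hep. Of the 10 genes, 4 passed as lower in both genotypes, as did 12.1% of all genes and 23.8% of those at level 3 or more. Groups did not overlap, with PHx lower, for 6 members in fl/fl and for 4 in △Hep (Il6st, Lifr, Jak2 and Bcl3), and for 19.9% and 16.2% of all genes. The PHx comparisons have separate sham controls but share 1 estimate of the spread.

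**Figure D1:**
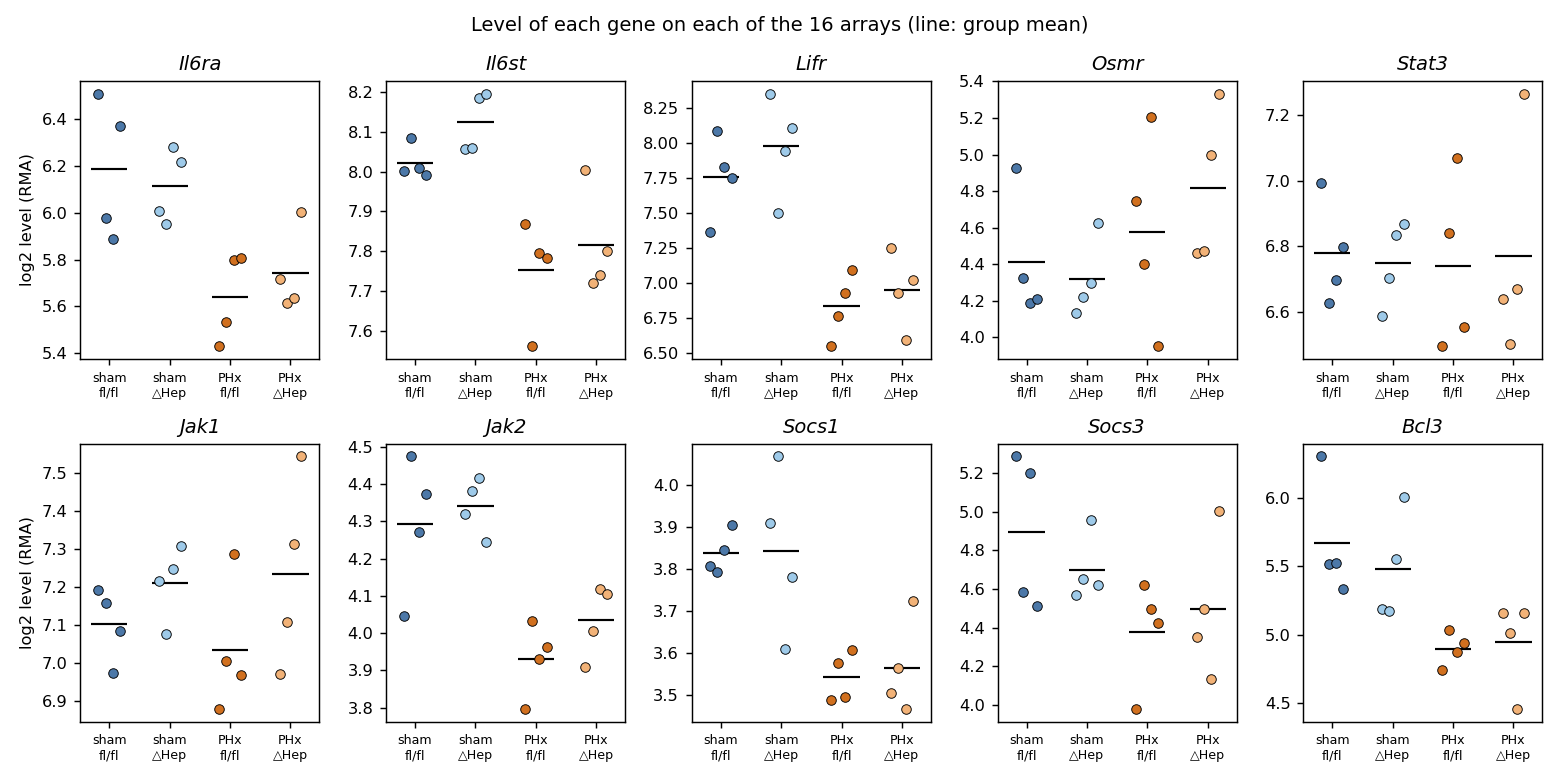
Log2 level of each of the 10 genes (vertical axis, one panel per gene) on each array (points) in the 4 groups along the horizontal axis, with the group mean as a line. Lifr and Bcl3 are lower on all 8 PHx arrays than on any of the 8 sham arrays, while the groups overlap for Osmr, Stat3, Jak1 and Socs3.

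Lifr, the receptor chain for leukaemia inhibitory factor, had the largest change of the 4 receptor genes among the 10. Its levels were 7.36, 8.08, 7.83 and 7.75 on the sham fl/fl arrays and 6.55, 6.76, 6.93 and 7.09 on the PHx fl/fl arrays. They were 8.35, 7.50, 7.94 and 8.10 in sham △Hep and 7.25, 6.93, 6.59 and 7.02 in PHx △Hep. Every PHx array lay below every sham array, a separation that 8.23% of all genes and 16.3% of genes at level 3 or more showed. Lifr was 1.89-fold lower after PHx in fl/fl (log2 -0.92 ± 0.19 SE, 95% interval -1.33 to -0.52, adjusted p = 0.00211, limma) and 2.04-fold lower in △Hep (-1.03, interval -1.43 to -0.62, adjusted p = 0.000878). Under 4 other scalings the log2 difference ran from -0.78 to -1.13 in fl/fl and from -0.82 to -1.22 in △Hep, and it passed under each.

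Il6ra, the chain that binds interleukin-6 itself, was 6.51, 5.98, 5.89 and 6.37 in sham fl/fl and 5.43, 5.53, 5.80 and 5.81 in PHx fl/fl. The fl/fl groups did not overlap, and the level was 1.46-fold lower after PHx (log2 -0.55 ± 0.14 SE, adjusted p = 0.00838, limma). In △Hep the levels were 6.01, 5.95, 6.28 and 6.22 after sham and 5.72, 5.61, 5.63 and 6.00 after PHx. The highest PHx △Hep array reached into the sham range there, and the difference of -0.37 (interval -0.67 to -0.07) missed the threshold at adjusted p = 0.0540. It passed with array medians subtracted (-0.52, adjusted p = 0.00574), under quantile scaling (0.0400), among genes at level 3 or more alone (0.0454) and in a fit of the △Hep arrays alone (0.0312). It also passed when PHx △Hep array 4 was left out (-0.46, adjusted p = 0.0300), or sham fl/fl array 1 (0.0379) or 3 (0.0417), which lie outside the contrast and enter only the shared spread. The difference shrank to -0.20 under cyclic loess (adjusted p = 0.314) and to -0.17 with the protein-coding median subtracted (0.306).

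Il6st, the signalling chain common to the family, varied little within groups. It stood at 8.0, 8.09, 8.01 and 7.99 in sham fl/fl and at 7.87, 7.56, 7.80 and 7.78 in PHx fl/fl. The △Hep arrays read 8.06, 8.06, 8.18 and 8.20 after sham and 8.0, 7.72, 7.74 and 7.80 after PHx. The operations did not overlap within either genotype, although the top PHx △Hep array came within 0.05 of the nearest sham △Hep array. The level fell by 0.27 ± 0.07 on the log2 scale in fl/fl (adjusted p = 0.0107, limma) and by 0.31 in △Hep (adjusted p = 0.00468), which are 1.21-fold and 1.24-fold. Il6st did not pass under cyclic loess scaling (adjusted p = 0.0991 and 0.0584), nor after subtracting each array's median over protein-coding genes of level 3 or more (-0.13 and -0.10, adjusted p = 0.168 and 0.211).

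Osmr, the oncostatin M receptor chain, was the 1 receptor of the 4 with a higher mean after PHx. It read 4.92, 4.32, 4.19 and 4.21 in sham fl/fl, 4.74, 4.40, 5.21 and 3.95 in PHx fl/fl, 4.13, 4.22, 4.30 and 4.62 in sham △Hep and 4.46, 4.47, 5.0 and 5.33 in PHx △Hep. PHx fl/fl held both a high and a low array, and the groups overlapped in each genotype. Neither difference passed, at 0.17 ± 0.25 in fl/fl (interval -0.38 to 0.71, adjusted p = 0.653, limma) and 0.50 in △Hep (interval -0.04 to 1.04, adjusted p = 0.151). The △Hep difference passed at 0.70 (adjusted p = 0.0277) with the protein-coding median subtracted.

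Jak2, 1 of the receptor-bound kinases, was 4.05, 4.47, 4.27 and 4.37 in sham fl/fl and 3.80, 4.03, 3.93 and 3.96 in PHx fl/fl, with every PHx array lower. In △Hep it was 4.32, 4.38, 4.42 and 4.24 after sham and 3.91, 4.01, 4.12 and 4.11 after PHx, again without overlap. It fell by 0.36 ± 0.08 in fl/fl (adjusted p = 0.00434, limma) and by 0.30 in △Hep (adjusted p = 0.0112). The △Hep call was lost under cyclic loess (-0.22, adjusted p = 0.0593) and with the protein-coding median subtracted (-0.10, adjusted p = 0.284). The fl/fl call held under all alternatives, down to -0.22 with adjusted p = 0.0461.

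Jak1, the kinase most used by this receptor family, and Stat3, the transcription factor, did not pass in either genotype. Jak1 read 7.19, 7.16, 6.97 and 7.08 in sham fl/fl, 6.88, 7.0, 7.29 and 6.97 in PHx fl/fl, 7.22, 7.08, 7.25 and 7.31 in sham △Hep and 6.97, 7.11, 7.31 and 7.55 in PHx △Hep. Stat3 read 6.99, 6.63, 6.70 and 6.80 in sham fl/fl, 6.50, 6.84, 7.07 and 6.56 in PHx fl/fl, 6.59, 6.70, 6.83 and 6.87 in sham △Hep and 6.64, 6.50, 6.67 and 7.27 in PHx △Hep. For both genes the PHx arrays spread on either side of the sham arrays, with PHx fl/fl array 3 and PHx △Hep array 4 at the top. The difference for Stat3 was -0.04 (interval -0.37 to 0.29) in fl/fl and 0.02 (-0.31 to 0.35) in △Hep, and that for Jak1 was -0.07 (-0.30 to 0.17) and 0.02 (-0.21 to 0.26). These intervals leave room for changes of up to 0.37 and 0.30 in size. The sign turned with the scaling for both genes, from -0.21 under quantile scaling to 0.10 with the protein-coding median subtracted for Stat3 in fl/fl, and from -0.15 to 0.23 for Jak1 in △Hep, and no setting passed.

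Both suppressors of cytokine signalling had lower means after PHx, and Socs1 passed. Socs1 was 3.81, 3.79, 3.85 and 3.90 in sham fl/fl, tightly grouped and above the 3.49, 3.58, 3.50 and 3.61 of PHx fl/fl. In △Hep the sham arrays read 3.91, 4.07, 3.61 and 3.78 and the PHx arrays 3.51, 3.56, 3.47 and 3.72, with 1 PHx array above the lowest sham array. It fell by 0.30 ± 0.08 in fl/fl (adjusted p = 0.0125, limma) and by 0.28 in △Hep (adjusted p = 0.0172). The △Hep call was lost without sham △Hep array 2 (adjusted p = 0.0560) or PHx △Hep array 3 (0.0521), and in a fit of the △Hep arrays alone (0.0716). In fl/fl it was lost under cyclic loess (adjusted p = 0.0524), and with the protein-coding median subtracted it was lost in both genotypes (0.215 and 0.504).

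Socs3, the STAT3-induced feedback inhibitor whose window holds the match above, was 5.29, 4.59, 5.20 and 4.51 in sham fl/fl, split into a higher and a lower pair. It was 3.98, 4.62, 4.50 and 4.42 in PHx fl/fl, 4.57, 4.65, 4.96 and 4.62 in sham △Hep and 4.35, 4.50, 4.14 and 5.0 in PHx △Hep. Groups overlapped in both genotypes, and the highest PHx △Hep array stood above all sham △Hep arrays. The difference was -0.51 (interval -0.95 to -0.08, adjusted p = 0.0676, limma) in fl/fl and -0.20 (-0.64 to 0.23, adjusted p = 0.485) in △Hep. In fl/fl it passed with array medians subtracted (-0.62, adjusted p = 0.0168), under quantile scaling (0.0278) and without sham fl/fl array 2 (-0.62, 0.0478), sham fl/fl array 4 (-0.64, 0.0362) or PHx △Hep array 4 (0.0404), which lies outside that contrast.

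Bcl3, the NF-κB cofactor, was 6.30, 5.51, 5.52 and 5.33 in sham fl/fl and 4.75, 5.04, 4.87 and 4.94 in PHx fl/fl. In △Hep it was 5.19, 5.17, 5.55 and 6.01 after sham and 5.16, 5.01, 4.46 and 5.16 after PHx. Each sham group held 1 array well above the others, and the 8 PHx arrays all lay below the 8 sham arrays, by a margin of about 0.01 at the closest pair. Bcl3 fell 1.70-fold in fl/fl (log2 -0.77 ± 0.22 SE, interval -1.24 to -0.30, adjusted p = 0.0152, limma). In △Hep the difference of -0.53 (interval -1.0 to -0.06) gave adjusted p = 0.0778, and it passed with array medians subtracted (-0.68, adjusted p = 0.0169) or without sham fl/fl array 1 (adjusted p = 0.0374). It was -0.38 under cyclic loess (adjusted p = 0.236) and -0.33 with the protein-coding median subtracted (0.205). Without sham fl/fl array 1 the fl/fl difference was -0.56, adjusted p = 0.0461.

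**Figure D2:**
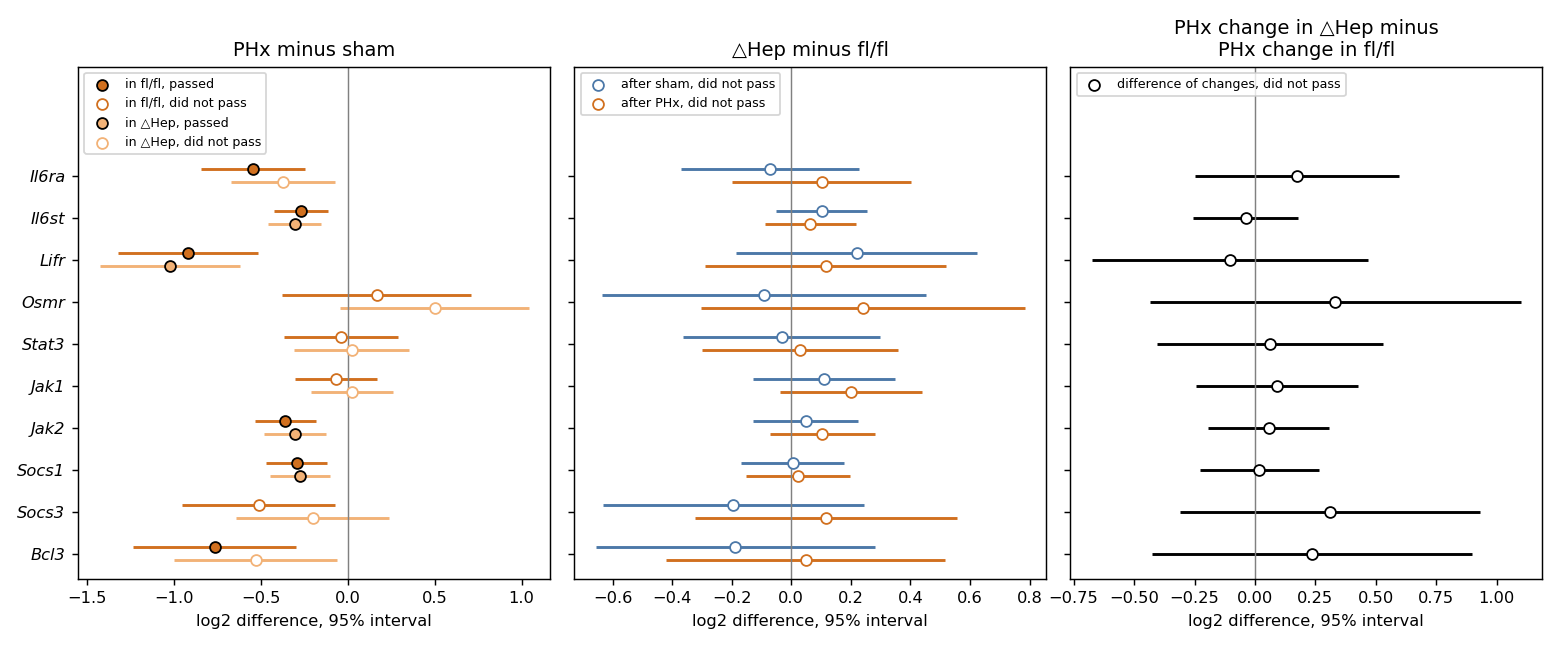
Log2 differences (points, horizontal axis) with 95% intervals (bars) for the 10 genes, as PHx minus sham in each genotype (left), △Hep minus fl/fl after each operation (middle) and the PHx change in △Hep minus that in fl/fl (right). Filled points passed at an adjusted p below 0.05. In the left panel 6 fl/fl and 4 △Hep points are filled, all below 0, and in the other panels no point is filled and every interval crosses 0.

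Loss of hepatocyte PPARα was not accompanied by a change that passed in any of the 10 genes. After sham surgery △Hep minus fl/fl ranged from -0.19 (Socs3) to 0.22 (Lifr), and the smallest adjusted p among the 10 was 0.704, for Il6st. After PHx it ranged from 0.02 (Socs1) to 0.24 (Osmr), with a smallest adjusted p of 0.736, for Jak1. All 10 means were thus a little higher in PHx △Hep than in PHx fl/fl, but all 10 were read on the same arrays. Averaged over both operations the smallest adjusted p was 0.877, again for Jak1. Limma called 0 of the 10 genes in each of these comparisons, and 0 of the 10 reached an unadjusted p of 0.05. Among all genes, 0.0133% passed after sham (4 genes), 0.143% after PHx (43) and 0.219% over both operations (66). No member's genotype groups were free of overlap, which 6.80% of all genes were after sham and 3.73% after PHx.

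The test of whether the PHx change itself differed between genotypes gave no call for the 10 genes or for any gene (0% of 30142, with 3400 genes at an unadjusted p below 0.05, limma). Il6ra and Bcl3 passed in fl/fl and not in △Hep, but their changes differed between genotypes by 0.17 (interval -0.25 to 0.60, adjusted p = 0.790) and 0.24 (interval -0.43 to 0.90, adjusted p = 0.825). The lowest adjusted p among the 10 was 0.734, for Socs3, at 0.31 (interval -0.31 to 0.93). For Lifr the interval was -0.68 to 0.47 and for Osmr -0.43 to 1.10. For Il6st (-0.26 to 0.18), Jak2 (-0.19 to 0.31) and Socs1 (-0.23 to 0.26) the bounds were narrower.

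**Figure D3:**
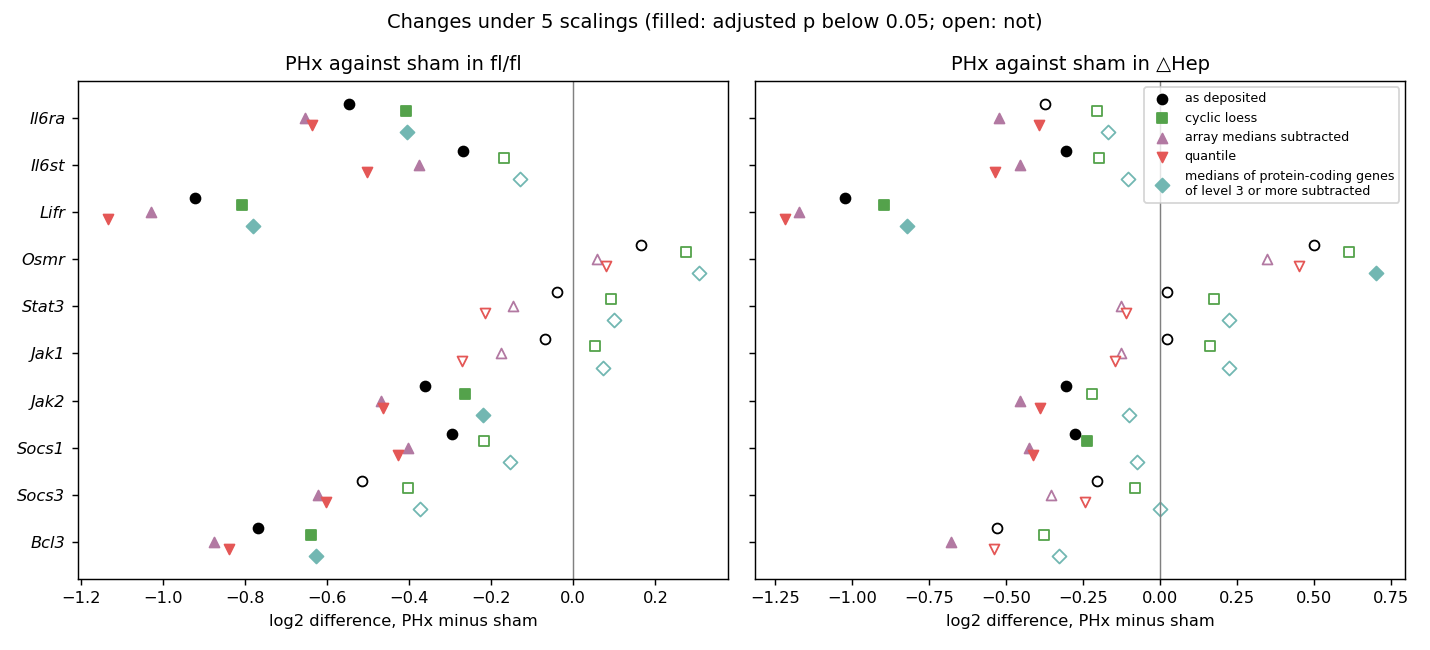
PHx-minus-sham log2 difference (horizontal axis) of each of the 10 genes in fl/fl (left) and △Hep (right) as deposited and under 4 other scalings of the arrays (marker shapes), filled where the adjusted p was below 0.05. Lifr stays filled in both panels under all 5, whereas Stat3 and Jak1 move from one side of 0 to the other and are never filled.

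The choice of scaling shifted all 10 genes together. The members' median in fl/fl was -0.44 with array medians subtracted, -0.48 under quantile scaling, -0.24 under cyclic loess and -0.19 with the protein-coding median subtracted. The medians in △Hep were -0.44, -0.39, -0.20 and -0.09. Over the genes at level 3 or more the same settings gave -0.25, -0.26, -0.05 and 0.00 in fl/fl. In △Hep they gave -0.27, -0.23, -0.04 and 0.08, so subtracting the protein-coding median left these genes above 0 there. The members' median minus that of these genes was -0.19 as deposited, -0.19 under cyclic loess and -0.22 under quantile scaling, and in △Hep -0.17, -0.16 and -0.17. Subtracting 1 value from each array cannot move this gap.

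Most ligand genes of the family had low levels, and few passed. Of 9 measured ligand genes 7 had a mean level below 3, and 0 were higher and 1 lower after PHx in fl/fl, and 2 were higher and 0 lower in △Hep. In all genes 11.9% were higher in fl/fl and 14.8% in △Hep. Il6 itself had a group mean of 0.94 in sham fl/fl, 0.93 in sham △Hep, 1.26 in PHx fl/fl and 0.95 in PHx △Hep, against background probe set medians of 0.97 to 1.29 over the arrays. The PHx fl/fl mean was raised by 1 array at 2.25, and the median of that group was 0.95. Osm, which encodes oncostatin M, fell by 0.35 ± 0.10 in fl/fl (adjusted p = 0.0172, limma), a call lost without PHx fl/fl array 1 (adjusted p = 0.0522) or without array 3 of sham fl/fl, and was -0.06 in △Hep. The Osm call was also lost with the protein-coding median subtracted (-0.20, adjusted p = 0.152). The higher genes in △Hep were Clcf1 (0.60, adjusted p = 0.0298), which encodes a ligand of the ciliary neurotrophic factor receptor, and Il27 (0.23, adjusted p = 0.0429). Both were lost with array medians subtracted (0.0596 and 0.412) and on leaving out any 1 of 5 or 10 arrays, up to 0.0971 and 0.142 without PHx △Hep array 4. Lif did not pass (-0.04 and 0.12).

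Among 7 other receptors of the class, Lepr, the leptin receptor, rose most. It was 2.33 ± 0.05 (SD, n = 4) in sham fl/fl and 4.59 ± 0.84 in PHx fl/fl, with PHx arrays from 3.71 to 5.37. In △Hep it was 2.44 ± 0.15 after sham and 4.13 ± 1.39 after PHx, with a PHx range of 3.02 to 5.94. No PHx array overlapped the sham arrays, but the PHx arrays differed widely among themselves. Lepr was higher by 2.25 ± 0.52 in fl/fl (adjusted p = 0.00448, limma) and by 1.69 in △Hep (adjusted p = 0.0215), the latter lost without PHx △Hep array 3 or 4 (adjusted p up to 0.0551) and in a fit of the △Hep arrays alone (0.0595). In fl/fl 1 of the 7 was higher and 2 lower (the interleukin-10 receptor genes Il10ra, -0.22, and Il10rb, -0.24), and in △Hep 1 higher and 1 lower (Il10ra, -0.24). Both falls were lost in fl/fl with the protein-coding median subtracted (adjusted p = 0.459 and 0.275), as was that of Il10ra in △Hep (0.708). The Il10ra calls were also lost on leaving out any 1 of 7 arrays in fl/fl and 5 in △Hep, and the Il10rb call on any 1 of 3. In △Hep Il10rb passed as lower with array medians subtracted (-0.32, adjusted p = 0.0057, limma) and under quantile scaling (-0.26, 0.0158).

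Shedding releases receptor chains such as that of Il6ra from the cell surface. Of 5 genes for it, 1 was higher in fl/fl and 2 in △Hep. Timp3, which encodes an inhibitor of the shedding protease ADAM17, was higher by 0.43 (adjusted p = 0.0463, limma) and 0.45 (0.0416), and Rhbdf1, which encodes a cofactor of that protease, by 0.28 in △Hep (0.00942). All 3 calls were lost with array medians subtracted (Timp3 0.0836 and 0.113, Rhbdf1 0.138), and those of Timp3 also on leaving out any 1 of 10 or 8 arrays, with 0.134 for the fl/fl call when PHx fl/fl array 3 was omitted and 0.137 for the △Hep call when PHx △Hep array 4 was. In fl/fl Rhbdf1 did not pass as deposited. It passed there as higher under cyclic loess (0.22, adjusted p = 0.0236, limma) and with the protein-coding median subtracted (0.28, 0.00756).

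Most of the other kinases and STATs fell after PHx, as Jak2 did. In each genotype 5 of 6 measured genes fell after PHx and 0 rose, with a list median of -0.53 in fl/fl and -0.60 in △Hep. Among all genes at level 3 or more 34.9% and 33.6% fell, with medians of -0.14 and -0.12. Tyk2, the third kinase of these receptors, fell by 0.66 ± 0.12 in fl/fl (adjusted p = 0.000941, limma) and by 0.63 in △Hep (adjusted p = 0.00125). Like Jak2, Tyk2 lay below the highest background probe set on every array. Stat2, an interferon-response factor, fell by 0.91 and 1.02, and Stat5b, which carries growth hormone signals in liver, by 0.61 and 0.59. Stat5a fell by 0.41 and 0.37 and Stat6, the interleukin-4 factor, by 0.46 and 0.61. Stat5b had the smallest adjusted p of these, 4.13e-05 in fl/fl and 4.79e-05 in △Hep.

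Of 16 other inhibitors of the pathway, 2 fell in fl/fl and 5 in △Hep, with none higher, where 34.9% and 33.6% of genes at level 3 or more fell. The counts are no higher than that share, and their difference between genotypes was not tested. Socs2 and Cish, inhibitors induced by STAT5, did not pass (Socs2 -0.03 and 0.09, Cish -0.12 and -0.20). Ptpn6, a phosphatase of mainly blood-derived cells, fell by 0.65 ± 0.15 in △Hep (adjusted p = 0.00470, limma) and was -0.28 in fl/fl (adjusted p = 0.178). Pias3, which encodes an inhibitor of STAT3, fell by 0.26 in fl/fl (adjusted p = 0.00050) and by 0.20 in △Hep (adjusted p = 0.00365), but with the protein-coding median subtracted the calls were lost (-0.12 and 0.01, adjusted p = 0.0910 and 0.931). Socs4 passed as lower in both genotypes and Pias2 and Pias4 in △Hep, and each was lost under cyclic loess, where Pias2 was not below 0.

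The acute-phase list gave calls about as often as other genes at level 3 or more. It holds STAT3 targets of hepatocytes but also genes such as the constitutive Saa4, so it does not read STAT3 activity alone. Of 24 genes, all at level 3 or more, 10 were lower and 2 higher in fl/fl, and 9 lower and 2 higher in △Hep. Among all genes at that level 34.9% were lower and 8.27% higher in fl/fl, and 33.6% and 8.81% in △Hep. The list medians were -0.18 and -0.19, against -0.14 and -0.12. The mean of the list ran from 9.91 to 10.15 on the 8 sham arrays and from 9.50 to 9.85 on the 8 PHx arrays. Saa4, a constitutive serum amyloid A, fell by 1.52 ± 0.27 in fl/fl (adjusted p = 6.32e-04, limma) and by 1.38 in △Hep (adjusted p = 0.00117). Lbp, the lipopolysaccharide-binding protein, fell by 0.96 and 1.08, Apcs, serum amyloid P, by 0.87 and 1.21, Saa3 by 0.79 and 1.03, and Lrg1 by 0.49 and 0.98. Crp fell by 1.25 in fl/fl (adjusted p = 0.00398) and by 0.81 in △Hep (adjusted p = 0.0405, lost on leaving out any 1 of 8 arrays, up to 0.125 without PHx △Hep array 4, and under cyclic loess, 0.0641).

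The exceptions were Hamp and Lcn2. Hamp, which encodes the iron hormone hepcidin, was 9.93 ± 0.53 and 9.91 ± 0.46 in the sham groups (fl/fl, △Hep; SD, n = 4) and 11.31 ± 0.34 and 11.16 ± 0.37 in the PHx groups. It rose by 1.38 ± 0.27 in fl/fl (adjusted p = 0.00162, limma) and by 1.25 in △Hep (adjusted p = 0.00291), with no overlap of groups. Lcn2, lipocalin-2, rose by 0.30 (adjusted p = 0.0136) and 0.27 (adjusted p = 0.0233, lost without sham △Hep array 2 or PHx △Hep array 4, up to 0.0738). Under quantile scaling neither Lcn2 call held (adjusted p = 0.121 and 0.193). Saa1, a strongly inducible acute-phase gene, did not pass (-0.16 and -0.19), nor did the fibrinogen gene Fgb (-0.10 and 0.01). Group means were 11.26 to 11.45 for Saa1 and 11.57 to 11.67 for Fgb, high after sham surgery too, and no unoperated livers were measured. Whether such high levels could still rise on this scale was not tested. Hp, haptoglobin, fell by 0.24 and 0.19, but neither call held with the protein-coding median subtracted (-0.10 and 0.01, adjusted p = 0.122 and 0.895).

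**Figure D4:**
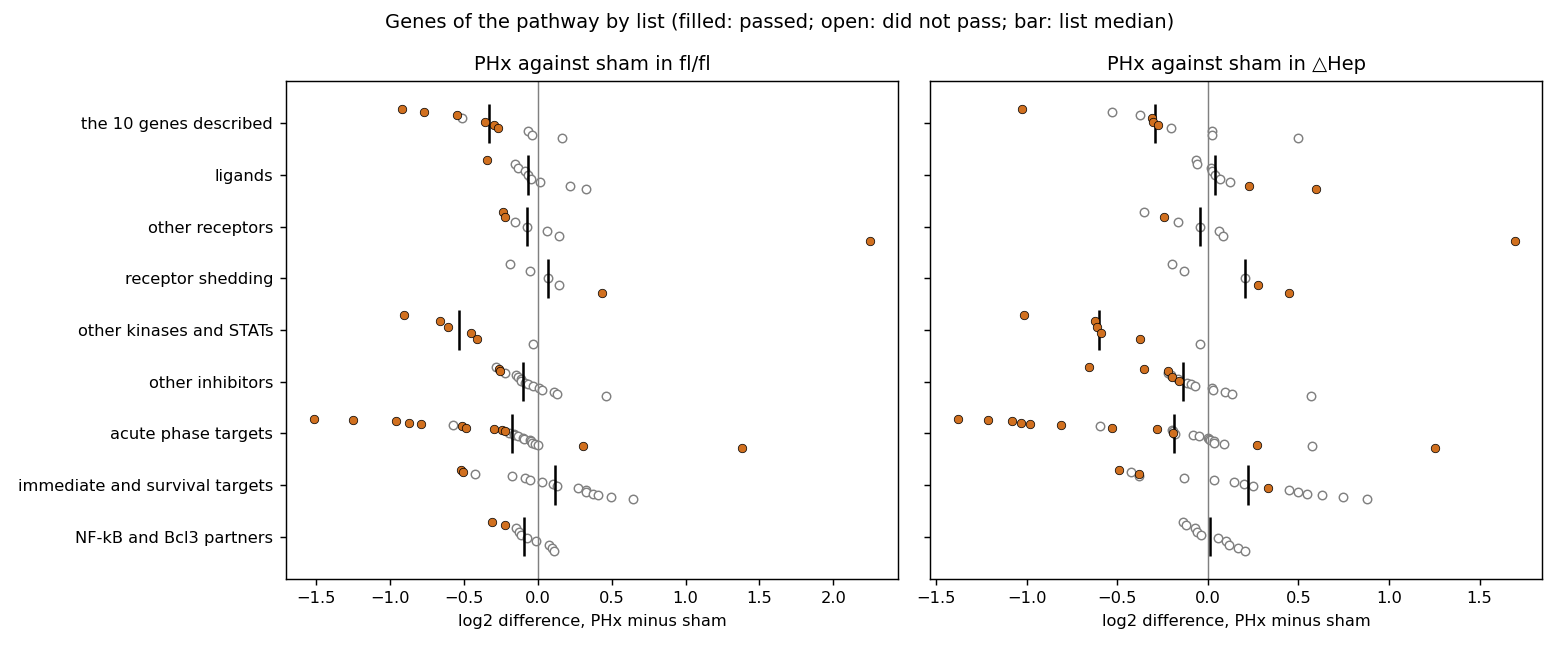
PHx-minus-sham log2 difference (horizontal axis) of each measured gene of the 10 and of 8 other lists of the pathway (rows), in fl/fl (left) and △Hep (right). Filled points passed, open points did not, and the bar is the list median. The other kinases and STATs have medians of -0.53 and -0.60, and the immediate and survival targets have medians of 0.12 and 0.22.

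Immediate-early and survival targets of STAT3 showed few calls, with 0 higher and 2 lower of 16 in fl/fl and 1 higher and 2 lower in △Hep. Cebpb, Cebpd and Myc, transcription factors of the early regenerative response, did not pass (Cebpb -0.09 and 0.20, Cebpd 0.32 and 0.25, Myc 0.41 and 0.50). Mcl1, a survival factor of the BCL-2 family, fell by 0.52 ± 0.11 in fl/fl (adjusted p = 0.00331, limma) and was -0.13 in △Hep (adjusted p = 0.410). With array medians subtracted Mcl1 passed as lower in △Hep too (-0.28, adjusted p = 0.0498). Its sham fl/fl arrays read 6.44 to 6.68 and its PHx fl/fl arrays 5.89 to 6.26, against 6.36 to 6.57 and 6.13 to 6.71 in △Hep. Pim1, a survival kinase, was lower in both genotypes (-0.51 and -0.49), and in △Hep Vegfa was lower (-0.38) and Timp1 higher (0.33), but all 4 calls were lost under cyclic loess (adjusted p from 0.0593 for Timp1 to 0.164 for Vegfa) and on leaving out any 1 of 3 to 6 arrays.

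Among 10 NF-κB genes that work with Bcl3, 2 fell in fl/fl and 0 in △Hep, where 34.9% and 33.6% of genes at level 3 or more fell. Relb fell by 0.22 (adjusted p = 0.0102, limma; 0.368 with the protein-coding median subtracted), Nfkb2 by 0.31 (adjusted p = 0.0195, lost without array 1 of either fl/fl group, up to 0.0597, and also under cyclic loess, 0.0636, and with the protein-coding median subtracted, 0.177). In △Hep both passed as lower with array medians subtracted (Nfkb2 -0.29, adjusted p = 0.0164, and Relb -0.21, 0.00634) and under quantile scaling (0.0164 and 0.00397). The IκB family genes Nfkbia (0.10 and 0.12) and Nfkbiz (-0.07 and -0.04) did not pass.

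The PHx arrays differed among themselves in this pathway. The mean of the immediate and survival list was 4.88, 5.26, 5.46 and 4.85 on the PHx fl/fl arrays and 4.91, 4.97, 5.33 and 5.56 on the PHx △Hep arrays, and 4.92 to 5.19 on all sham arrays. The 3 arrays above 5.30 (PHx fl/fl array 3 and PHx △Hep arrays 3 and 4), picked out after their values were seen, were also those with the highest Osmr. PHx △Hep array 4 was the highest of its group for 6 of the 10 genes and PHx fl/fl array 1 the lowest of its group for 8.

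Mean levels of the markers of several liver cell types were lower on PHx arrays, and their part in the changes of the 10 genes was not tested. The counts of lower markers stand beside 34.9% and 33.6% lower among all genes at level 3 or more in fl/fl and △Hep. In bulk tissue, fewer cells of a type and less RNA per cell cannot be told apart. The mean of the hepatocyte markers was 10.11 to 10.27 on sham arrays and 9.96 to 10.11 on PHx arrays, with 5 of 12 lower in fl/fl and 4 of 12 in △Hep. Kupffer cell and macrophage markers averaged 5.0 to 5.61 and 4.76 to 5.21, with 4 lower and 1 higher of 12 in fl/fl and 8 lower in △Hep. Sinusoidal endothelial markers averaged 5.30 to 5.45 and 4.99 to 5.30, with 6 lower and 1 higher of 11 in each genotype. Stellate cell and fibroblast markers averaged 4.50 to 4.76 and 4.03 to 4.41, with 5 and 4 of 10 lower. The 2 erythroid markers measured averaged 5.02 to 5.22 and 4.58 to 4.97, with 2 lower in fl/fl and 1 in △Hep. Monocyte markers averaged 3.37 to 3.47 and 3.43 to 3.67, with 1 higher of 7 in fl/fl and 2 higher and 1 lower in △Hep. Cholangiocyte markers averaged 2.41 to 2.59 and 2.28 to 2.75, with 1 higher and 1 lower of 6 in fl/fl and 0 in △Hep. In all, 9 of the 10 neutrophil markers, all 9 T and NK cell markers and all 6 B cell markers measured had a mean level below 3.

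Genes whose centred levels over the 16 arrays were nearest to a member's were found among 6841 protein-coding genes of mean level 4 or more, for the 3 members with the largest range of group means. For Lifr they were Ugt2b34, a glucuronosyltransferase gene (root mean square difference 0.16 log2 units), Nqo2, a quinone reductase gene (0.18), and Cmtm8 (0.19). For Bcl3 they were Scara5, a scavenger receptor gene (0.23), Xaf1 (0.25) and Praf2 (0.26). For Il6ra they were Ap2s1, a clathrin adaptor subunit gene, Malsu1 and Dbt, a subunit of the branched-chain keto acid dehydrogenase, each at 0.16. These rankings describe the arrays and carry no test.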

How the data were processed

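The deposited table holds log2 expression values of 72688 probe sets on 16 Affymetrix arrays, made by the authors with RMA (per the submitters' processing notes), a method that as usually run corrects background, quantile-normalizes and summarises probes. The RMA version, software and settings are not given in these sources, and the number of arrays limits the precision. Probe sets were named from the platform annotation. Of them, 30604 had 1 symbol, 2146 had several and 39938 were unnamed here, and 827 symbols were updated through RefSeq. For each of 30142 genes the probe set with the highest mean was used. Limma 3.58.1 (R 4.3.3) fitted 1 mean per group over all 16 arrays (lmFit, eBayes, 12 residual degrees of freedom) with Benjamini-Hochberg adjustment over all genes, in 6 comparisons. In simulated data on 30142 genes for PHx against sham in fl/fl, 69% of changes of 0.5 and 96% of changes of 1 were called, and 8 of 29942 unchanged genes. The simulation changed 200 genes, with independent normal noise and no array-wide shift. In the real comparison 6271 genes were lower and 3597 higher and array-wide levels differed, so these shares do not carry over to it.

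Alternatives were 3 other scalings, a level filter of 3, trend with robust eBayes, the mean of probe sets, array weights, only the arrays compared and each array left out. Subtraction of the median of protein-coding genes was added after seeing the data. The 10 genes, the 8 other pathway lists and the 10 marker lists were chosen with earlier results of these data known, so counts over them are descriptions. Named by rule were all 10 genes, fixed ligands, receptors, inhibitors and targets, up to 6 called genes per list and comparison with the largest changes, and the 3 nearest genes of 3 members. Replicate numbers follow accession order. Promoter windows are RefSeq, GRCm38.p6, and coordinates come from that annotation.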

Additional observations from a re-analysis of the deposited data

How the results depend on the processing

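In fl/fl the number of the 10 genes called after PHx ran from 6 to 7 on leaving out each array in turn, and in △Hep from 3 to 6. The △Hep count was 2 under cyclic loess (Lifr, Socs1) and 2 after subtracting each array's median of protein-coding genes at level 3 or more (Lifr, lower, and Osmr, higher), against 4 as deposited and 6 with array medians subtracted. In fl/fl those 3 scalings gave 4, 4 and 7, the losses being Il6st and Socs1 and the gain Socs3. The genotype comparisons and the difference of PHx changes gave 0 to 0 on leaving out arrays. Calls for Lifr in both genotypes and for Il6ra, Jak2 and Bcl3 in fl/fl held under all alternatives run. Outside the 10 genes, the △Hep difference turned sign for Pias2, to 0.0015 under cyclic loess and to 0.0411 with the protein-coding median subtracted, and under the latter for Pias3 (0.0058) and Hp (0.0082), all as deposited below 0. The causes were not tested.

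No paired analysis was possible because the labels give no replicate numbers shared between groups. The limits are 4 arrays per group, an unstated relation of arrays to mice, and array-wide levels that differ between operations, so that calls near the threshold rest on the scaling. Il6 lies at the level of background probe sets, so its differences are not informative.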
